A study of Mus musculus with 24 samples.

Results

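Lipid-associated macrophage genes are a set of 10 genes that lipid-laden tissue macrophages express together. They were chosen by name as Trem2, Tyrobp, Gpnmb, Lpl, Cd9, Apoe, Fabp5, Cd36, Lgals3 and Cd68, and all 10 were found among the 14159 named genes of the deposited expression matrix. Their levels were followed in the whole quadriceps of C57BL/6 mice (B6 mice) and of MRL/MpJ mice (MRL mice), the latter known for unusual tissue repair. Muscle was either uninjured or had been given a volumetric muscle loss injury, in which a piece of the quadriceps is cut out. Injured muscle was collected at 21 days post injury (dpi). The defect was filled with saline (control injury), with decellularized extracellular matrix (ECM) from porcine small intestine, or with polyethylene (PE) powder, a plastic that provokes a foreign body response. All 8 groups, that is uninjured, saline, ECM and PE in each strain, held 3 libraries of female mice, with no transgene or other agent in any group. The mice were 6 to 8 weeks old on the day before surgery, and no separate age is stated for the uninjured mice.

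The macrophage state that these genes mark was described in obese fat tissue and occurs wherever macrophages take up much lipid or debris. TREM2 is a surface receptor for lipids and lipoproteins, and TYROBP (DAP12) is the adapter through which it signals. Around this receptor the cells switch on genes for taking up, binding and exporting lipid and for the lysosome, the compartment in which engulfed material is digested. Several of the 10 genes are also expressed by other cells of muscle. Fat cells and muscle fibres express Lpl and Cd36, and capillary endothelium expresses Cd36. Apoe is expressed by many tissues, and Cd9 and Lgals3 by many cell types.

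The receptor gene Trem2 lies on chromosome 17 from 48653429 to 48661175 (GRCm39, plus strand), Gpnmb on chromosome 6 from 49013426 to 49047863 (plus strand), and Cd68 on chromosome 11 from 69555037 to 69557067 (minus strand). Their promoters are shown as examples. Lgals3, the gene whose level followed that of Trem2 most closely (Pearson correlation 0.98 over the 24 libraries), is not printed. Its window held none of the motifs named below. RefSeq windows of 250 bases before and 50 after the start (GRCm38.p6) were at hand for 7 of the 10 members, and Tyrobp, Lpl and Fabp5 are named only. The 250 upstream bases are given 5′ to 3′ on the strand of the gene, for Cd68 at chr11:69666171-69666420, for Trem2 at chr17:48346151-48346400 and for Gpnmb at chr6:49036268-49036517. Capitals mark the AP-1 motif TGAGTCA.
Cd68: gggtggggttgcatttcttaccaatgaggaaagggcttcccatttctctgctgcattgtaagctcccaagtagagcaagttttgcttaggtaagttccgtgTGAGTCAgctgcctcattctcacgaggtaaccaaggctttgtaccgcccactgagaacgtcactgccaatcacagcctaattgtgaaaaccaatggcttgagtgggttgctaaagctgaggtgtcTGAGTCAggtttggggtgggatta
Trem2: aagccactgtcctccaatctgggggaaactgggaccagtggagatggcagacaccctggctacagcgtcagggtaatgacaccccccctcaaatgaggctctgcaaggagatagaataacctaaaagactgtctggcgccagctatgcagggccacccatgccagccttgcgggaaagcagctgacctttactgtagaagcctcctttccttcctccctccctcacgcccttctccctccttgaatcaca
Gpnmb: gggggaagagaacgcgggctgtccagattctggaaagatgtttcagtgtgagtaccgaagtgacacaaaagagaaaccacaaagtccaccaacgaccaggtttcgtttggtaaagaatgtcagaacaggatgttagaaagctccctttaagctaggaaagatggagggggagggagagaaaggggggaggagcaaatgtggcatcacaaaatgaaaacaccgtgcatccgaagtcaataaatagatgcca
TGAGTCA, the sequence bound by Fos and Jun proteins, was found at positions -149 and -24 from the Cd68 start. It was also found, on the other strand, 8 bases past the Gpnmb start, outside the printed stretch. Of 32851 RefSeq windows of this length, 5.2% held it on either strand. The E-box CATGTG was in the Cd9 window and in 14.2% of all windows. Neither the E-box CACGTG (7.15% of windows) nor the ETS motif GAGGAAGT (3.2%) was in any of the 7 windows. These are matches of letters in short windows and not sites shown to be bound.

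Levels are given as log2 CPM, the reads of a gene scaled to a common library total, on which a count of 0 reads -3.65, and 3 counts in a library of mean size correspond to 0.119 CPM. A gene was called when its limma test passed an adjusted p of 0.05 over all 14159 genes. In bulk muscle, fewer cells of a type and less RNA per cell cannot be told apart. Replicate 2 of the PE-treated MRL mice stood apart. Its mean correlation with its own group was 0.82, against 0.89 and 0.90 for the other 2 libraries of that group and 0.92 to 0.97 in the other groups. Its summed CPM of 13 pan-macrophage genes was 4710, against 245 and 254, and that of 8 muscle fibre genes was 34518, against 135348 and 136983. On a scale on which B6 libraries average 0 and the other MRL libraries 1, genes higher in MRL mice placed it at 1.01 and genes lower in MRL mice at 0.67, where the other MRL libraries lay between 0.96 and 1.11. Results of the members that rest on this library are given with and without it.

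The libraries carried 1 of 3 first and 1 of 8 second sequencing indices, so that each shared an index with 9 others. The low levels of Gpnmb moved with this sharing. Those of Cd9 did not in libraries that shared an index with 0, 1, 2 or 3 of the 4 high libraries named below. Its medians there were 29.8, 20.5, 27.4 and 29.7 CPM, and the 1 library that shared with 4 read 45.3 CPM. From 0 to 4, Trem2 medians were 1.38, 4.58, 4.75, 9.14 and 63.0 CPM and Lgals3 medians 8.71, 17.2, 18.7, 44.5 and 135 CPM. For Cd68 the medians from 0 to 4 were 6.04, 7.85, 7.38, 10.4 and 42.8 CPM. Medians of Tyrobp, Lpl, Apoe, Fabp5 and Cd36 did not rise in this way. The libraries that shared with 3 or 4 were all saline- or ECM-treated B6 libraries, and the part of treatment was not tested. The highest Gpnmb levels were in the 3 PE-treated B6 libraries and in PE-treated MRL replicate 2. Among the 20 other libraries, Gpnmb had a median of 3.19 CPM (2.29 to 38.8) in the 4 that shared an index with none of these, 29.0 CPM in the 8 that shared with 1, and 55.4 CPM in the 3 that shared with 2. It was 44.0 CPM in the 4 that shared with 3 and 95.5 CPM in the 1 that shared with 4, so the rise was not even. In these 16 libraries Gpnmb was 0.28% to 0.98% of the summed CPM of their index partners. As an alternative 0.402% of the partners' summed CPM was subtracted from every gene (the median share of Mmp12 in uninjured muscle).

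**Figure D1:**
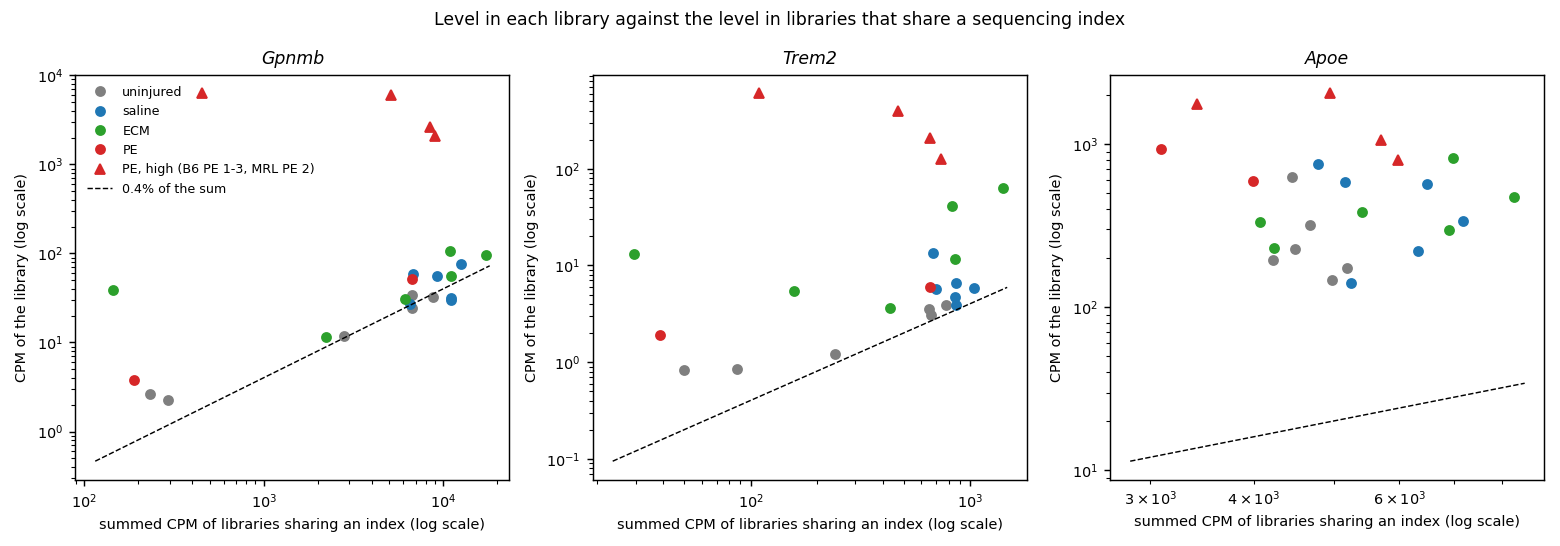
CPM of Gpnmb, Trem2 and Apoe in each library (vertical axes, log scale) against the summed CPM of the 9 libraries that share a sequencing index with it (horizontal axes, log scale), with 1 point per library, coloured by treatment, and triangles for the 3 PE-treated B6 libraries and PE-treated MRL replicate 2. The dashed line is the share subtracted in the alternative, next to which most other Gpnmb libraries lie (0.28% to 0.98% of the sum where at least 1 high library shares an index), while the Apoe libraries all lie far above it.

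PE raised the receptor and lysosome-associated members in B6 mice. Compared with the control injury, 7 of the 10 genes were called higher in PE-treated B6 mice, 0 were called lower, and 9 had all 3 PE libraries above all 3 saline libraries. Over all genes 5.97% were called, 5.37% higher, and 18.7% had their PE libraries all above the saline libraries. The median log2 fold change of the members was 3.56, against 0.0152 over all genes.

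Trem2, the lipid receptor, read 2.75, 1.99 and 2.54 after saline and 7.69, 8.64 and 6.99 after PE in B6 mice. The groups were far apart, and the rise of 5.34 was called (adjusted p = 0.0258, standard error 1.28). Tyrobp, whose protein carries the TREM2 signal, read -0.39, -2.94 and 1.69 after saline and 2.64, 2.95 and 3.32 after PE. Its PE libraries were also all higher, but with the wide saline spread the difference of 3.52 (standard error 1.15, adjusted p = 0.0719) was not called. Tyrobp was at or below the level of 3 counts in 7 of the 24 libraries, at a count of 0 in 3 of them, and never above 3.32. It did not follow the other macrophage genes: its correlation with the pan-macrophage mean was 0.42 over the 24 libraries, against 0.92 for Trem2, and it read -0.85 in PE-treated MRL replicate 2, where the macrophage sum was many times that of its group. Whether the deposited Tyrobp values capture all of the gene's transcripts was not tested, and this applies to each Tyrobp value given here.

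Gpnmb, a transmembrane glycoprotein of lysosome-rich phagocytes, had the largest change of the 10. It read 4.93, 4.99 and 4.76 after saline and 11.36, 12.54 and 11.01 after PE in B6 mice. The difference of 6.74 (standard error 1.52, adjusted p = 0.0231) is 107-fold on this scale. With the index share subtracted, the B6 saline libraries read 0, 0 and 0.803 CPM against 2025 to 5931 CPM after PE. The direction and the call held, but the size of the fold then has no firm base (14.1 on the log2 scale). Cd68, an endosomal and lysosomal glycoprotein used as a macrophage stain, read 3.28, 3.03 and 3.49 after saline and 7.66, 8.72 and 6.99 after PE, a difference of 4.52 (standard error 0.95, adjusted p = 0.0198). Lgals3, which encodes the sugar-binding galectin-3, read 5.18, 3.95 and 5.40 after saline and 9.70, 10.73 and 9.04 after PE. It rose by 4.98 (standard error 1.13, adjusted p = 0.0231). Cd9, a tetraspanin of the cell surface, read 4.79, 4.14 and 5.69 after saline and 7.89, 8.75 and 7.30 after PE, a rise of 3.11 (standard error 0.80, adjusted p = 0.0315).

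The lipid-handling members divided. Fabp5, a cytosolic fatty acid carrier, read 3.90, 3.52 and 4.22 after saline and 7.38, 8.34 and 6.75 after PE in B6 mice. Rising by 3.61, it had the smallest standard error and adjusted p of the 10 (0.55 and 0.00817). Cd36, a scavenger receptor for oxidized lipoprotein and fatty acids, read 7.11, 7.88 and 6.62 after saline and 9.05, 10.26 and 8.76 after PE, a rise of 2.16 (standard error 0.57, adjusted p = 0.0359). Lpl, the lipase that frees fatty acids from lipoproteins, read 8.13, 9.44 and 7.82 after saline and 9.70, 10.58 and 9.25 after PE. These groups overlapped, and the difference of 1.38 (standard error 0.61, adjusted p = 0.167) was not called. Apoe, the lipoprotein component that carries exported cholesterol, read 9.15, 8.39 and 9.19 after saline and 10.04, 11.01 and 9.64 after PE. All PE libraries were higher, but the difference of 1.32 (standard error 0.58, adjusted p = 0.166) was not called either.

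The calls in B6 mice depended on single libraries more than the directions did. The 10 log2 fold changes stayed above 0 whichever B6 PE or saline library, or PE-treated MRL replicate 2, was left out. Without PE-treated B6 replicate 2, 0 of the 10 were called. Without PE-treated B6 replicate 1, or without any of the 3 B6 saline libraries, 1 was called. Without PE-treated MRL replicate 2, which enters the fit through the shared error, 8 were called, against 17.5% of all genes.

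**Figure D2:**
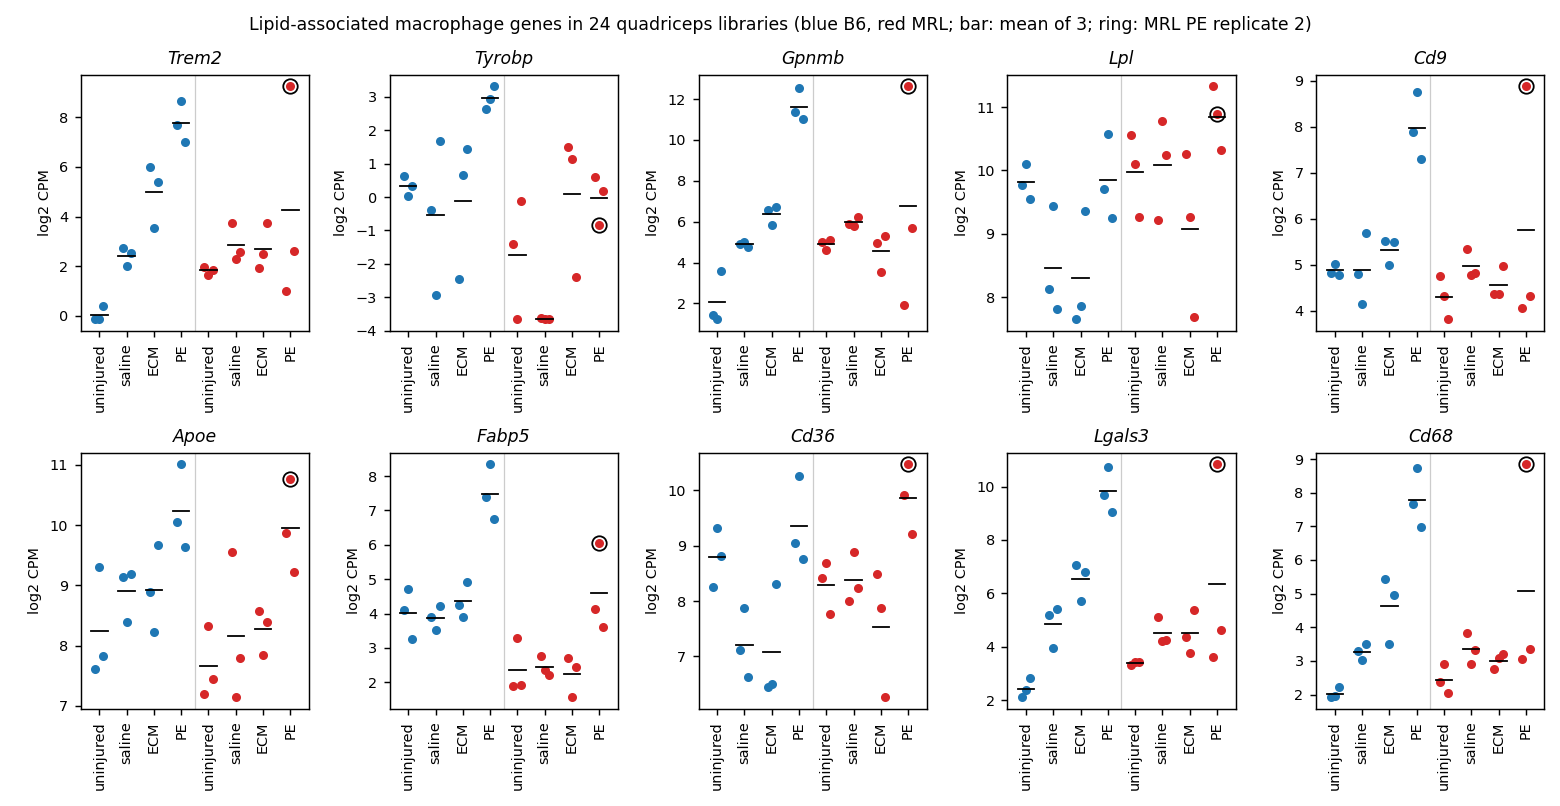
Level of each of the 10 genes (vertical axes, log2 CPM) in the 24 libraries by group, B6 in blue and MRL in red, with 1 point per library, a bar at the mean of 3 and a ring around PE-treated MRL replicate 2. For Trem2, Gpnmb, Cd9, Lgals3 and Cd68 the 3 PE-treated B6 libraries lie above every other library except the ringed one, which lies above all of them.

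In MRL mice the same comparison gave 0 calls among the 10 genes, with 0% of all genes called. An unadjusted p under 0.05 was reached by 4 of the 10, against 3298 of all 14159 genes. Trem2 read 3.75, 2.27 and 2.57 after saline and 0.99, 9.25 and 2.60 after PE in MRL mice. Replicate 2 was the highest of all 24 libraries, while the other PE libraries lay within or below the saline range. Gpnmb read 5.88, 5.79 and 6.25 after saline and 1.94, 12.63 and 5.69 after PE, with the same single high library. Cd68 read 3.83, 2.90 and 3.32 after saline and 3.07, 8.84 and 3.35 after PE. Lgals3 read 5.13, 4.23 and 4.25 after saline and 3.62, 10.82 and 4.64 after PE. For Cd9 the saline libraries read 5.33, 4.78 and 4.81 and the PE libraries 4.05, 8.88 and 4.33. With all libraries these 5 genes had positive differences, from 0.78 for Gpnmb and Cd9 to 1.83 for Lgals3. Without replicate 2 each turned below 0, to -1.07 for Trem2, -2.16 for Gpnmb, -0.79 for Cd9, -0.40 for Lgals3 and -0.14 for Cd68, and 0 of the 10 were called.

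The lipid-handling members of MRL mice did not turn with that library. Fabp5 read 2.76, 2.35 and 2.22 after saline and 4.13, 6.04 and 3.62 after PE in MRL mice. All PE libraries were higher, with a difference of 2.16 (standard error 0.55, adjusted p = 0.0987) and of 1.43 without replicate 2. Cd36 read 8.001, 8.88 and 8.24 after saline and 9.92, 10.47 and 9.21 after PE, again without overlap (difference 1.49, adjusted p = 0.148). Apoe read 9.56, 7.14 and 7.79 after saline and 9.87, 10.77 and 9.22 after PE, a difference of 1.79 (adjusted p = 0.118) and 1.38 without replicate 2. Lpl read 9.21, 10.78 and 10.25 after saline and 11.33, 10.89 and 10.32 after PE, a difference of 0.77 (adjusted p = 0.438). Tyrobp read -3.64, -3.65 and -3.65 after saline and 0.59, -0.85 and 0.18 after PE, against saline libraries at or next to a count of 0. Its fitted difference of 3.62 (adjusted p = 0.118) therefore depends on the prior count.

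**Figure D3:**
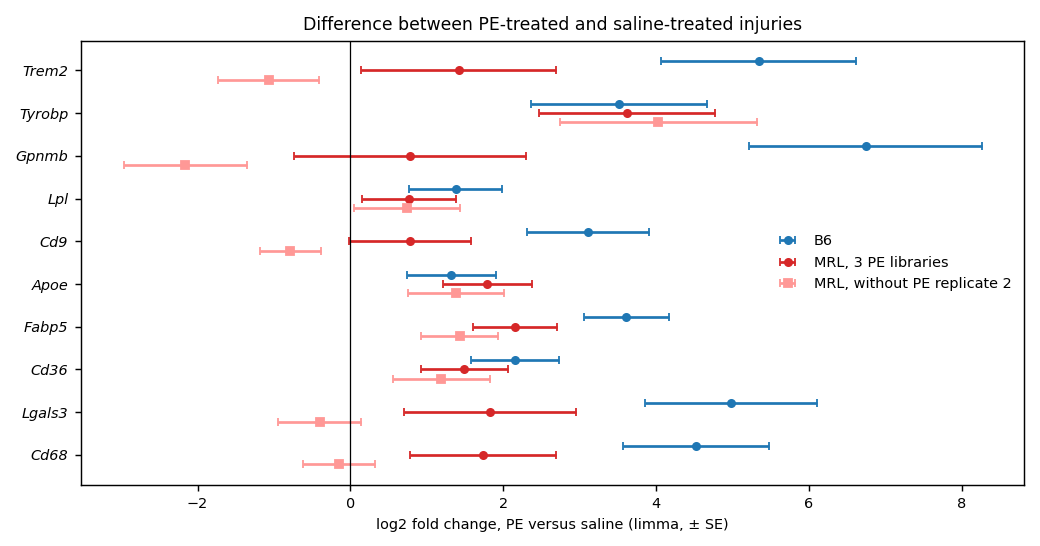
Log2 fold change of PE against saline for each of the 10 genes in B6 and in MRL mice (horizontal axis, log2 CPM difference), with bars of 1 standard error and the MRL value without PE-treated replicate 2 as a separate mark. All 10 B6 values are above 0, and the MRL values of Trem2, Gpnmb, Cd9, Lgals3 and Cd68 fall below 0 without that library.

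Whether the 2 strains responded differently to PE was tested as an interaction. With all libraries 0 of the 10 genes and 0% of all genes were called. Of the 10, 2 had an unadjusted p under 0.05 (Trem2 and Gpnmb), against 614 of all 14159 genes. The response of Gpnmb was lower in MRL mice by 5.97 on the log2 scale, with a standard error of 2.15 (adjusted p = 0.988). Without PE-treated MRL replicate 2, 5 genes were called lower in MRL mice, against 3.74% of all genes. These were Gpnmb at -8.91 (standard error 1.08, adjusted p = 0.000156), Trem2 at -6.41, Lgals3 at -5.39, Cd68 at -4.67 and Cd9 at -3.89. Apoe and Tyrobp, at 0.06 and 0.52 without that library, and Lpl at -0.64 were not called.

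Set directly against PE-treated B6 mice, PE-treated MRL mice differed in 1 member, Fabp5, while 3.35% of all genes were called. An unadjusted p under 0.05 was reached by 7 members, against 2709 of all 14159 genes. Fabp5 was lower by 2.89 on the log2 scale (standard error 0.55, adjusted p = 0.00394), and its MRL libraries all lay below the B6 libraries. Without replicate 2, 6 members were called lower, against 14.1% of all genes, with Gpnmb at -7.82, Trem2 at -5.98, Lgals3 at -5.69, Cd68 at -4.58, Cd9 at -3.79 and Fabp5 at -3.62. Lpl and Cd36 had positive differences of 1.01 (adjusted p = 0.390) and 0.51 (adjusted p = 0.678), which were not called. Adipocyte markers moved with this comparison. Their summed CPM over 10 genes was 124 to 258 in PE-treated B6 mice, 4700 and 3140 in PE-treated MRL replicates 1 and 3, and 319 in replicate 2, and their part in the Lpl and Cd36 levels was not tested.

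Of 13 pan-macrophage genes 8 rose with PE in B6 mice. The members were therefore also expressed relative to the mean log2 CPM of all 13 in the same library. The 13 include Itgam and Ptprc, which other leukocytes express too, and neutrophil genes also rose with PE in B6 mice. The part of other leukocytes in this mean was not tested. On that scale 5 of the 10 stayed higher in all PE than in all saline libraries of B6 mice, against 1.72% of all genes. Gpnmb was higher by 4.22 (5.41 ± 0.20 against 1.18 ± 0.28, SD, n = 3 each) and Trem2 by 2.83 (1.54 ± 0.04 against -1.28 ± 0.19). Lgals3 was higher by 2.46, Cd68 by 2.00 and Fabp5 by 1.09. Lpl and Apoe were lower in all PE than in all saline libraries, with differences of -1.14 and -1.20. Tyrobp, Cd9 and Cd36 overlapped. Each of the 7 non-overlapping differences had a two-sided exact permutation p of 0.1, the smallest that 3 against 3 can give (0.316 adjusted over 60 tests). The same number, 5, were higher with each PE-treated B6 library left out. In MRL mice 0 of the 10 were higher without overlap, against 0.184% of all genes. With 2 PE libraries left after replicate 2 was taken out, Tyrobp, Apoe and Fabp5 were, against 6.44% of all genes.

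**Figure D4:**
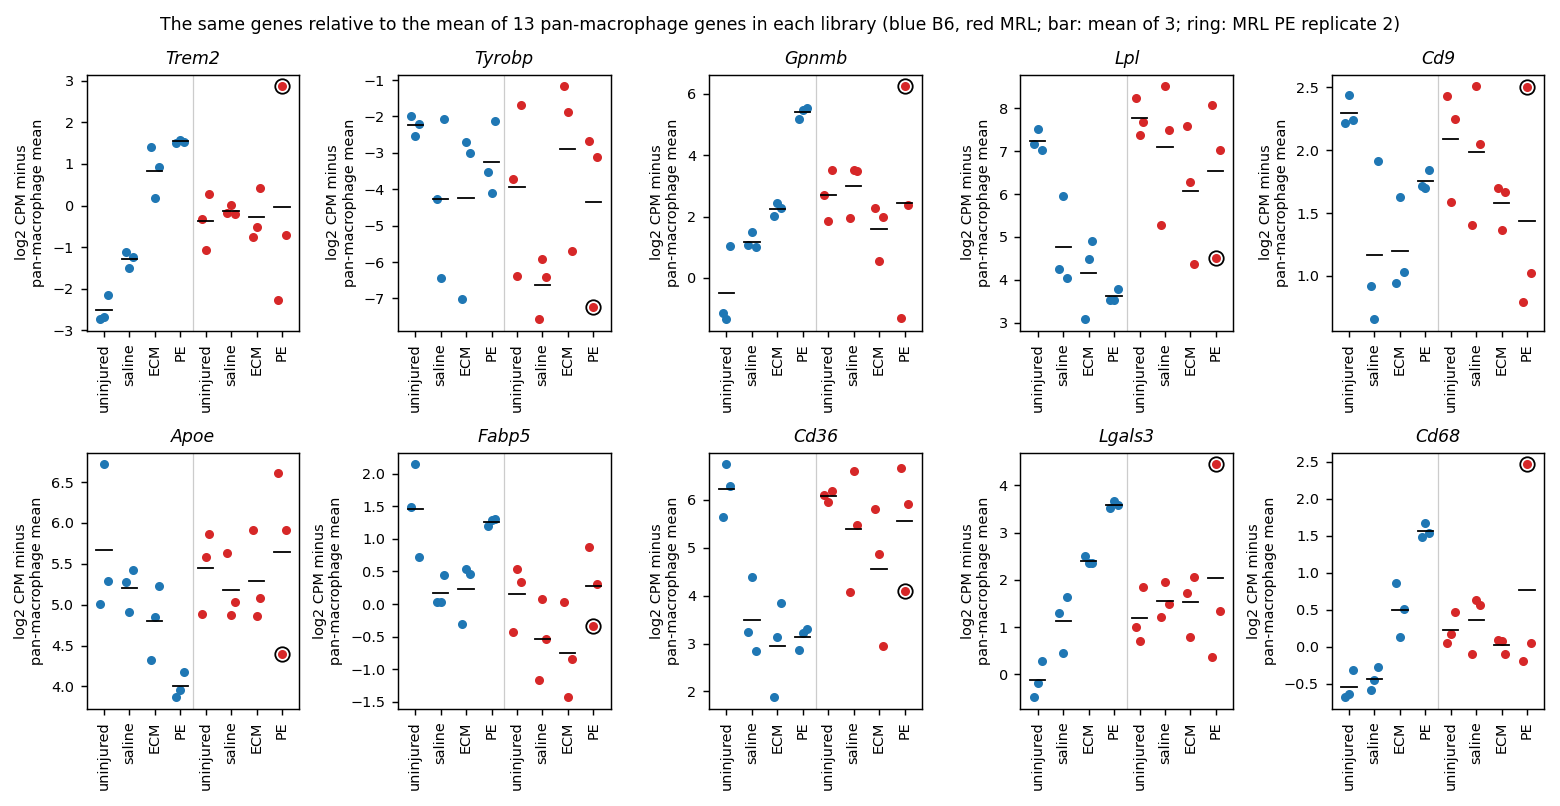
Level of each gene relative to the mean of 13 pan-macrophage genes in the same library (vertical axes, log2 CPM difference) in the 8 groups, B6 in blue and MRL in red, with 1 point per library, a bar at the mean of 3 and a ring around PE-treated MRL replicate 2. In B6 mice the PE libraries of Trem2, Gpnmb, Fabp5, Lgals3 and Cd68 lie above the saline libraries, and those of Lpl and Apoe lie below.

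After ECM, 4 of the 10 genes lay between saline and PE without overlap in B6 mice, against 1.41% of all genes. Against saline 0 members were called (0 at an unadjusted p under 0.05) and 0.0283% of all genes were. Trem2 had the largest difference, 2.54 (standard error 1.28, adjusted p = 1), with ECM libraries at 5.98, 3.55 and 5.38, all above saline. Gpnmb read 6.58, 5.82 and 6.74 after ECM, Lgals3 read 7.08, 5.73 and 6.80, and Cd68 read 5.42, 3.49 and 4.96. The ECM libraries of these 3 genes were also above their saline libraries, although the lowest ECM and the highest saline value of Cd68 both read 3.49. With the index share subtracted, Cd68 overlapped, with 7.75 CPM in the lowest ECM and 8.99 CPM in the highest saline library. Trem2, Gpnmb and Lgals3 then still lay above saline without overlap. Relative to the pan-macrophage mean the 4 genes were again higher after ECM than saline without overlap, against 1.32% of all genes. The differences were 2.12 for Trem2, 1.27 for Lgals3, 1.07 for Gpnmb and 0.94 for Cd68. Tyrobp, Lpl, Cd9, Apoe, Fabp5 and Cd36 overlapped on both scales.

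PE against ECM in B6 mice gave 1 called member, Fabp5, against 0.226% of all genes. All 10 had an unadjusted p under 0.05, against 2911 of all 14159 genes. Fabp5 read 4.26, 3.91 and 4.92 after ECM, and was higher after PE by 3.13 (standard error 0.55, adjusted p = 0.0370). Without PE-treated MRL replicate 2, 7 members were called, against 11.5% of all genes, with Gpnmb at 5.26, Lgals3 at 3.29, Cd68 at 3.17, Trem2 at 2.80, Cd9 at 2.65 and Cd36 at 2.27 beside Fabp5.

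In MRL mice ECM gave 0 called members against saline, with 0.00706% of all genes called. An unadjusted p under 0.05 was reached by 1 member, Tyrobp, against 503 of all 14159 genes. PE against ECM gave 0 called members and 0% of all genes, with 5 members at an unadjusted p under 0.05, against 4022 of all 14159 genes. These were Lpl, Apoe, Fabp5, Cd36 and Cd68, with differences of 1.78, 1.68, 2.36, 2.33 and 2.08. Without PE-treated replicate 2 they were 1.76, 1.27, 1.635, 2.03 and 0.20. Trem2 went from 1.57 to -0.91 without it, Gpnmb from 2.16 to -0.78, Cd9 from 1.19 to -0.38 and Lgals3 from 1.85 to -0.38. Trem2 read 1.91, 2.48 and 3.74 after ECM in MRL mice, a range that overlapped saline. Tyrobp read 1.49, 1.13 and -2.38, and so all 3 ECM libraries lay above the saline libraries, which held at most a trace of reads.

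Between strains after ECM, 1 member was called, against 2.66% of all genes. Fabp5 read 2.70, 1.56 and 2.45 in MRL mice, lower by 2.12 on the log2 scale (standard error 0.55, adjusted p = 0.0430). This call held in 4 of 16 alternative settings. It was lost when a near-identical copy, described below, was added (limma adjusted p = 0.209). Without PE-treated MRL replicate 2, Trem2 (-2.26), Lgals3 (-2.02) and Cd68 (-1.62) were called lower too, 4 in all against 4.24% of all genes. The ECM response differed between strains for 0 members and 0% of all genes (0 members at an unadjusted p under 0.05).

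The control injury itself was compared with uninjured muscle. In B6 mice 0 members and 0% of all genes were called, with 3 members at an unadjusted p under 0.05, against 1751 of all 14159 genes. Trem2 read -0.12, -0.11 and 0.38 in uninjured B6 muscle and was higher after saline without overlap (difference 2.38, adjusted p = 0.446). Gpnmb read 1.44, 1.24 and 3.57 and Lgals3 read 2.12, 2.39 and 2.82 in uninjured B6 muscle, both below their saline libraries. With the index share subtracted, the Gpnmb difference of 2.81 turned to -2.62. Trem2 then overlapped, at 3.17, 0.450 and 2.94 CPM after saline and 0.639, 0.501 and 0.246 CPM in uninjured B6 muscle. Lgals3 overlapped too, at 22.4, 1.62 and 34.0 CPM after saline and 3.38, 4.02 and 3.01 CPM uninjured. Cd68 did not, at 6.18, 4.64 and 8.99 CPM after saline and 3.41, 3.38 and 3.54 CPM uninjured. Uninjured B6 muscle read 9.77, 10.10 and 9.56 for Lpl and 8.26, 9.32 and 8.82 for Cd36. Both were lower after saline without overlap, with uncalled differences of -1.35 (adjusted p = 0.388) and -1.60 (adjusted p = 0.303). Adipocyte markers summed to 820 to 4443 CPM in uninjured and 287 to 679 CPM in saline-treated B6 muscle, and their part in these 2 genes was not tested. In MRL mice 0 members and 0% of all genes were called (0 members at an unadjusted p under 0.05). Trem2 (difference 1.03), Gpnmb (1.07), Cd9 (0.68) and Lgals3 (1.14) were also higher after saline without overlap in MRL mice. For saline against uninjured muscle the share of all genes that separated without overlap was not computed in either strain. These separations are therefore not set against it. The strain difference in this response gave 0 members and 0% of all genes, with 0 members at an unadjusted p under 0.05.

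Uninjured MRL muscle read higher than uninjured B6 muscle for Trem2 (1.99, 1.66 and 1.86) and Gpnmb (5.02, 4.60 and 5.08). The differences of 1.78 and 2.82 were not called with all libraries, among which 0 members and 2.6% of all genes were. An unadjusted p under 0.05 was reached by 1 member, against 1549 of all 14159 genes. Without PE-treated MRL replicate 2, Gpnmb (adjusted p = 0.0329) and Fabp5 (-1.67, adjusted p = 0.0476) were called, against 3.35% of all genes. These Gpnmb levels move with index sharing: all 3 MRL uninjured libraries shared an index with high libraries, and 2 of the 3 B6 ones did not. With the index share subtracted, the uninjured difference in Gpnmb turned to -1.63. That in Trem2 went to 0.52, and its libraries then overlapped (0.760, 0.399 and 0.925 CPM in MRL and 0.639, 0.501 and 0.246 CPM in B6 mice). After saline 0 members and 2.51% of all genes were called between strains. The 3 with an unadjusted p under 0.05 were Tyrobp (-3.10), Lpl (1.62) and Fabp5 (-1.44), against 1880 of all 14159 genes.

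Fabp5 was the member called most often between strains, and it was the one with a near-identical copy in the matrix. Gm6166, a processed pseudogene on chromosome 9 from 57391246 to 57391654 (GRCm39, plus strand), matches a Fabp5 transcript at 96.8% identity over 100% of the shorter of the 2 sequences. Gm6166 read 0.0362 to 0.430 CPM in the 12 B6 libraries and 1.46 to 37.5 CPM in the 12 MRL libraries, without overlap. Reads of the 2 can be split between them by the counting, so their CPM were also summed. The sum was 166, 324 and 108 CPM in PE-treated B6 mice and 29.6, 103 and 20.6 CPM in PE-treated MRL mice. The summed strain difference after PE was -2.17 (standard error 0.56, adjusted p = 0.0352) and was still called. After ECM it was -1.53 (adjusted p = 0.209), so that call was lost, and in uninjured muscle and after saline it was -0.98 and -0.86. The summed rise with PE in B6 mice was 3.61 (adjusted p = 0.00937), as it was for Fabp5 alone.

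**Figure D5:**
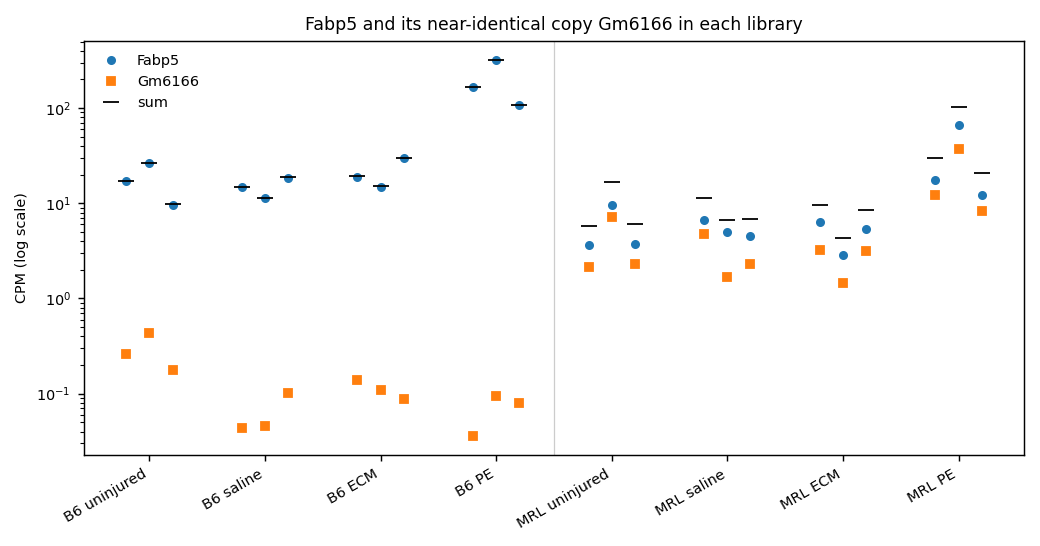
CPM of Fabp5, of its near-identical copy Gm6166 and of their sum in each library (vertical axis, log scale), by group. Gm6166 is at most 0.430 CPM in the B6 libraries and at least 1.46 CPM in the MRL libraries, and the 3 PE-treated MRL sums lie below the 3 PE-treated B6 sums.

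The 8 group means ordered the members in different ways. Trem2 ran from 7.77 in PE-treated B6 to 0.05 in uninjured B6 muscle. PE-treated B6 mice did not overlap the next group by mean for Trem2, Lgals3, Fabp5 and Tyrobp, although for Trem2 and Lgals3 PE-treated MRL replicate 2 lay above them, and neighbours from second to sixth place overlapped for Trem2. Gpnmb in PE-treated B6 mice overlapped the next group, PE-treated MRL mice, through replicate 2. Lpl ran from 10.85 in PE-treated MRL to 8.29 in ECM-treated B6 mice, a range in which all neighbours overlapped. Cd36 was likewise highest in PE-treated MRL mice (9.87 ± 0.63, SD, n = 3) and lowest in ECM-treated B6 mice (7.08 ± 1.06).

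Across the 24 libraries the 10 genes did not follow one pattern. The genes most like Trem2 by Pearson correlation of log2 CPM were Lgals3, the lysosomal cathepsin gene Ctss, Galnt6 and the proton pump subunit gene Atp6v0d2 (each 0.98) and Cd84 (0.97). They were 0.91 to 0.95 over the 20 libraries left without the 3 PE-treated B6 libraries and PE-treated MRL replicate 2. Trem2 and Cd68 correlated at 0.97 (0.92 over the 20), but Trem2 and Lpl at -0.05 (-0.56) and Trem2 and Tyrobp at 0.29 (-0.19). The genes most like Lpl were Nrp1 (0.92), Mcph1 and Cd36 (each 0.91), Ncoa4 (0.89) and Xdh (0.88). With the mean of 10 adipocyte markers, Lpl correlated at 0.46 (0.63 over the 20) and Cd36 at 0.40 (0.81). With the mean of 6 endothelial markers, Lpl correlated at 0.34 (0.80) and Cd36 at 0.09 (0.82). All of these are descriptions over libraries that share index partners and group structure.

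The wider gene lists below share the instability of the members' calls. Without PE-treated B6 replicate 1 or 2, 0 genes of any list were called for PE in B6 mice, and without a B6 saline library 0 to 4 of each list were. Between strains after PE, 0 genes of any list were called without PE-treated B6 replicate 1. The counts for PE in B6 mice stand beside 5.37% of all genes called higher, and those between strains beside 3.35% called. Without PE-treated MRL replicate 2, 17.5% of all genes were called for PE in B6 mice. Between strains after PE, 1500 of the 14159 genes were then called higher in MRL mice and 1990 (14.1%) lower. Genes that act with the members in the TREM2 pathway were read from a list of 14. In PE-treated against saline-treated B6 mice 6 of the 14 rose and 0 fell (median 1.66), among them Ms4a6d (3.39), the kinase gene Syk (3.12) and the exchange factor gene Vav1 (3.03). MRL mice had 0 calls among the 14. The median of 1.07 rested on PE-treated replicate 2 and was 0.09 without it, and the largest differences, 1.71 for Ms4a6d and 1.61 for the adapter gene Hcst, became 0.50 and 0.17. Between strains after PE 0 were called with all libraries and 12 were lower without PE-treated MRL replicate 2, with Vav1 at -2.25 and Ms4a7 at -2.11 in the full fit.

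Of 23 other lipid-handling genes 9 rose with PE in B6 mice (median 0.47), including the scavenger receptor gene Msr1 (4.84), the cholesterol esterifying enzyme gene Soat1 (4.29) and the lysosomal acid lipase gene Lipa (4.21). For MRL mice 0 of these were called, with the largest differences for Angptl4 (2.89, and 3.20 without replicate 2) and the sterol transporter gene Abcg1 (2.28, and 1.11 without it). Between strains after PE 0 were called, with Dgat2, which makes storage fat, at 3.75 and Soat1 at -2.87. Without replicate 2, 9 of them were called higher and 6 lower in MRL mice. Of 20 lysosome genes 14 rose with PE in B6 mice (median 2.10), led by Atp6v0d2 (6.34), Ctss (5.07) and Ctsk (3.96). PE-treated MRL mice had 0 called lysosome genes, and the largest differences, 1.85 for Ctsz and 1.77 for Grn, became 0.64 and 0.74 without replicate 2, with the median going from 1.20 to 0.14. Between strains after PE 0 were called, with Atp6v0d2 at -4.52 and Ctss at -3.91, and 18 were lower without replicate 2.

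Other genes used to mark lipid-associated macrophages were measured for 13 of 15 listed, and 5 rose with PE in B6 mice (median 2.54). The largest rises were those of the elastase gene Mmp12 (7.19), the integrin gene Itgax (6.24) and osteopontin, Spp1 (5.99). In MRL mice 0 were called, with Igf1 at 2.01 and Cd5l at 1.92 (2.20 and 1.70 without replicate 2), and Clec7a was the 1 gene called lower in PE-treated MRL than B6 mice (-4.54, with 6 of the list called without replicate 2). Of 7 genes beyond the members that the study grouped with this state on these samples, 5 rose with PE in B6 mice. All 7 also stand in the lists above, and as the study's own choice they are no independent evidence. Lipa rose by 4.21, Nceh1 by 2.76 and Ctsb by 2.53, while 0 were called in MRL mice or between strains. In MRL mice Plin2 was at 2.14 and Lipa at 1.63, which became 1.58 and -0.01 without replicate 2. Between strains Fabp4 was at 2.55 and Ctsl at -1.46, and 5 of the 7 were called without that library. Of 9 giant cell and osteoclast genes measured, 4 rose with PE in B6 mice, led by Atp6v0d2 (6.34), the fusion gene Dcstamp (6.02) and Mmp9 (4.37). With PE in MRL mice 0 of these were called, with Acp5 at 3.00 and Mmp9 at 2.76 (2.81 and 1.89 without replicate 2). Between strains 0 were called (Atp6v0d2 -4.52, Dcstamp -4.05), and 5 were lower without replicate 2.

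Markers of other cells were read beside the members. Of 13 measured pan-macrophage genes 8 rose with PE in B6 mice (median 2.17), led by Itgam (4.51), Cd14 (3.73) and Lyz2 (3.65). The macrophage gene Adgre1 was not among the genes of the matrix. In MRL mice 0 were called. Spi1 at 2.02 and Ptprc at 1.71 rested on PE-treated replicate 2 and were 0.54 and 0.04 without it. C1qb was the 1 gene called lower in PE-treated MRL than B6 mice (-2.10, and 13 without replicate 2). Of 5 measured neutrophil genes 4 rose with PE in B6 mice, led by S100a9 (6.08), S100a8 (4.61) and Csf3r (3.69). Of the neutrophil genes 0 were called with PE in MRL mice. Against PE-treated B6 mice, S100a9 (-4.77) and S100a8 (-3.30) were lower in PE-treated MRL mice, and all 5 were without replicate 2. Adipocyte markers gave 0 calls with PE in B6 mice (median -1.27) and in MRL mice (median 1.79, and 3.07 without replicate 2). Between strains after PE, Lep (4.82) and Plin4 (2.26) were higher in MRL mice, and all 10 adipocyte markers were without replicate 2. For muscle fibre, endothelial, Schwann cell, dendritic cell and fibroblast markers 0 were called in any of these 3 comparisons, with medians of -0.81, -0.58, -0.08, -0.19 and 0.38 for PE in B6 mice. Without PE-treated MRL replicate 2, 4 endothelial genes and 1 dendritic cell gene were called higher and 2 fibroblast genes lower in PE-treated MRL than B6 mice, and 1 adipocyte, 1 muscle fibre and 1 endothelial gene were called lower with PE in B6 mice.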

How the data were processed

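Poly(A)-selected RNA of whole, flash-frozen quadriceps was sequenced in 24 libraries. The authors quantified transcripts with kallisto, summed them to genes with tximport, kept genes above 1 CPM in at least 3 libraries and deposited log2 CPM, TMM-normalized with a prior count of 2. This unit does not keep the depth of each library. From its lowest values, 3 counts in a library of mean size were computed to be 0.119 CPM. Of 14160 rows, 1 without a gene name was left out. The builds named in the submitters' notes are GRCm39 and mm39.

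limma 3.58.1 (R 4.3.3) was fitted with a mean-variance trend and 1 coefficient per group over all 24 libraries. 15 comparisons were drawn from it, with Benjamini-Hochberg adjustment within each over 14159 genes. The labels give separate samples of a group and no batch, and the p-values measure the spread between those samples. The fit was tested on simulated data. Fold changes are on the scale of log2 CPM with the prior count, which understates changes of low genes, and a CPM was recovered by taking that prior off. Members relative to the pan-macrophage genes were tested with an exact permutation test. Near-identical copies were sought with BLAST+ 2.17.0+ at 90% identity over 50% of the shorter transcript. The sequencing indices were read from the study's library metrics.

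The members and lists were chosen with earlier results of these data known. In each list up to 3 called genes with the largest change, or 2 where none was called, were named for PE against saline in either strain and for MRL against B6 mice after PE. For marker lists of other cells without a call, counts and medians are given in place of names. The neutrophil genes Ly6g and Retnlg, and Adgre1, Siglec15, Cst7 and Lilrb4a, were not among the genes of the matrix. Numbered replicates shared a number across groups. Deviations of same-numbered samples correlated above 0.1 in all 3 pairs only between PE-treated MRL and B6 mice (0.105, 0.53 and 0.44). The number was therefore used as a block in an alternative. Other alternatives were a filter at a mean log2 CPM of 1, equal totals, library weights, a constant prior variance, log2(CPM + 1), the compared groups alone, and leaving out each library. The index subtraction and the sum of Fabp5 and Gm6166 were chosen after seeing the data.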

Additional observations from a re-analysis of the deposited data

Results flagged for a closer look

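Gpnmb after ECM moved in opposite directions in the 2 strains. All 3 ECM libraries of B6 mice (6.58, 5.82 and 6.74) lay above the B6 saline libraries, a difference of 1.49, and all 3 of MRL mice (4.96, 3.53 and 5.28) lay below the MRL saline libraries, a difference of -1.39. The responses differed by -2.87 on the log2 CPM scale (standard error 2.15). The limma test of that difference did not pass the threshold (unadjusted p = 0.197, adjusted p = 1). Index sharing moved with these levels, since the 3 ECM-treated B6 libraries shared an index with 3 or 4 high-Gpnmb libraries and the ECM-treated MRL libraries with 0 or 1. With the index share subtracted, the MRL libraries overlapped, at 6.36, 2.60 and 38.2 CPM after ECM and 31.9, 18.1 and 25.5 CPM after saline. The B6 libraries then read 26.3, 12.4 and 63.1 CPM after ECM and 0, 0 and 0.803 CPM after saline.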

How the results depend on the processing

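Of 58 log2 fold changes of single members followed through 934 alternative values, 804 kept their direction and side of the threshold, 51 lost a call, 69 gained one and 10 turned direction. The 10 called fold changes kept their direction in all 159 of theirs. The 7 calls for PE against saline in B6 mice ranged from 0 to 8 when single libraries were left out. The range was 0 to 7 for PE against ECM in B6 mice, 0 to 2 for PE against saline and 0 to 3 for PE against ECM in MRL mice, and 0 to 5 for the strain difference in the PE response. Between strains it was 0 to 2 in uninjured muscle, 0 to 1 after saline, 0 to 4 after ECM and 1 to 6 after PE, and it was 0 to 0 in the comparisons not named here. Relative to pan-macrophage genes it was 5 to 5 in B6 and 0 to 3 in MRL mice. The share over all genes for each left-out library is not given here, so these ranges describe the stability of the calls alone. For PE against saline in MRL mice, leaving out single libraries moved Trem2 from -1.07 to 3.06, Gpnmb from -2.16 to 3.19, Cd9 from -0.79 to 1.63, Lgals3 from -0.40 to 3.20 and Cd68 from -0.14 to 2.74, each lowest without PE-treated replicate 2.

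Library weights, which ran from 0.0570 for PE-treated MRL replicate 2 to 56.3 and did not converge, raised the calls to 3 for ECM and 7 for saline in B6 mice. They gave 10 for PE against ECM in B6 mice, and 3, 1 and 3 for PE, ECM and PE against ECM in MRL mice. Between strains they gave 1, 5, 4 and 8 in uninjured, saline, ECM and PE, and 6 and 1 for the strain differences in the PE and ECM responses. Weights raised calls among all genes too, to 15.7% for ECM, 33.8% for saline and 39.4% for PE against ECM in B6 mice. In MRL mice the shares were 23.3%, 0.0918% and 16.3% for PE, ECM and PE against ECM. Between strains they were 6.5%, 41.8%, 17% and 56.5% in uninjured, saline, ECM and PE. For the strain differences in the PE and ECM responses they were 30.5% and 3.28%. With weights, PE against saline in MRL mice read -0.46 for Trem2, -1.64 for Gpnmb and -0.54 for Cd9. The filter and equal totals each gave 0 calls for PE against ECM in B6 mice and between strains after ECM. For PE against ECM in MRL mice they gave 2 and 3. With equal totals 3, 379 and 717 of all 14159 genes were called in these comparisons, in that order, against 32, 376 and 0 in the main fit. Shares over all genes for the filter, the compared groups alone and log2(CPM + 1) are not given here. Equal totals moved the median of all genes for PE against saline in B6 mice from 0.02 to 0.27. Fitting the compared groups alone gave 4 for PE against ECM in B6 mice, 1 between strains in uninjured muscle and 0 after PE. With log2(CPM + 1) there were 0 calls between strains after ECM and 2 after PE. A constant prior variance, the index subtraction and the sum of Fabp5 and Gm6166 each gave 0 between strains after ECM. The cause of these changes was not tested. With the index share subtracted, Gpnmb read -1.63 between strains in uninjured muscle and -2.62 for saline against uninjured B6 muscle. The replicate block gave 1 call for PE against ECM in MRL mice and changed no other count by over 1.5 times.

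The 3 libraries of a group allow no exact permutation p under 0.1, so the tests across genes lean on a spread shared by all groups. Tyrobp was at or below the level of 3 counts in 7 libraries, and whether depth or the counted transcripts set this level was not tested. Whole muscle holds many cell types, and no level here is a level per macrophage.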
